A study of Drosophila melanogaster with 23 samples.

Results

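The Jonah and trypsin genes are the fly's main families of secreted digestive serine proteases. They were taken as every gene whose FlyBase symbol starts with Jon and a digit or ends in Try, which gave 27 of the 17606 genes in the count table: 16 Jonah genes and 11 trypsin genes. All 27 passed the filter on low counts that left 14365 genes for testing. Serine proteases of this kind are made by enterocytes of the midgut and released into the lumen as inactive precursors, which are cut to become active. Trypsins cut proteins after lysine or arginine, and the Jonah proteins resemble chymotrypsins. The levels of both families are known to follow feeding and the sugar and protein content of the food, and they are used as a readout of enterocyte function.

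RNA came from whole Drosophila melanogaster larvae at stage L1, pooled male and female, 25 to 30 larvae per sample, from crosses kept at 25 °C. There were 6 genotypes, with 23 libraries. Set21 larvae carry a mutant allele of Set2, the methyltransferase that trimethylates lysine 36 of histone H3, and had 4 libraries. Their comparison stock was yw, with 3. The 4 histone genotypes had 4 libraries each. Larvae labelled H3.3K36RH3.2K36R, called combined H3K36R here, have lysine 36 changed to arginine both in the replacement histone H3.3 and in the replicated histone H3.2. Larvae labelled H3.3K36RH3.2HWT, called H3.3K36R alone, share the H3.3 change but have the H3.2 type labelled HWT. Larvae labelled H3.3CtrlH4K16R, called H4K16R, have lysine 16 of histone H4 changed to arginine and H3.3 labelled Ctrl. The histone control is H3.3CtrlH3.2HWT. The study addresses the roles of Set2 and of lysine 36 of histone H3 in gene regulation, and these samples hold every larval tissue at once. A gene's level is given as CPM, the count relative to the library total after TMM scaling, and levels of different genes are compared per kilobase of exon. A gene passed the test at an adjusted p below 0.05 (edgeR's quasi-likelihood test, Benjamini-Hochberg adjustment over all 14365 genes), and SEs are those of the fitted log2 fold changes.

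Library totals ran from 111138070 to 157973821 counts. Set2 itself had 4.97 to 7.69 CPM in Set21 larvae, against 70.4 to 82.4 CPM in yw larvae. Marker genes of several tissues passed the filter on low counts, 13 of 13 for midgut identity, 12 of 12 for neurons, 10 of 10 for muscle and 11 of 11 for fat body. Libraries of the Set21 group stood apart from one another. Genes of the Osiris family, which are active in cuticle-forming cells around molting and late embryonic stages, summed to 4650, 1500, 963 and 460 CPM in Set21 replicates 1 to 4, against 17.3 to 33.0 CPM in yw larvae. In the histone genotypes, H4K16R replicate 3 had 2280 CPM in that sum, beside 18 to 19.9 CPM in the other 3 H4K16R libraries. H3.3K36R alone replicates 3 and 4 had 108 and 208 CPM, beside 20.3 and 32.8 CPM in replicates 1 and 2, and histone control replicate 3 had 233 CPM, beside 18.7 to 24 CPM in the other 3 control libraries. In RNA of whole animals, fewer cells of a type and less RNA per cell cannot be told apart.

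The 27 genes lie in 8 places on the autosomes, given here in the BDGP6.54 annotation. The 11 trypsin genes form a single cluster on 2R:11336840-11357537, in the order lambdaTry, kappaTry, zetaTry, etaTry, thetaTry, alphaTry, epsilonTry, betaTry, gammaTry, deltaTry and iotaTry. The Jonah genes sit as Jon25Biii, Jon25Bii and Jon25Bi on 2L:4949941-4955144, Jon44E on 2R:8691448-8692844, Jon65Aiv, Jon65Aiii, Jon65Aii and Jon65Ai on 3L:6039155-6054443, and Jon66Ci and Jon66Cii on 3L:8391540-8393649. Further along are Jon74E on 3L:17548077-17549127, Jon99Ciii, Jon99Cii and Jon99Ci on 3R:29922216-29926189, and Jon99Fii and Jon99Fi on 3R:30487016-30489895. All are annotated as protein coding. Neighbouring members arose by duplication and resemble one another, and how reads that match several copies were counted is not given in the sources used here. This bears most on gammaTry and deltaTry, which with the adjacent CG30025 and CG30031 are near-identical copies, so their values are uncertain. Jon44E overlaps CG8586 and deltaTry overlaps CG13202, each on the opposite strand, and reads of such partners cannot be told apart without the strand setting.

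Per kilobase, the members spanned a wide range of levels. Jon65Aiv was the highest, at 3730 CPM per kb over all 23 libraries, and ranked 7th of the 14294 tested genes with a length. Jon25Biii (1650), Jon65Aiii (1550), epsilonTry (1430), Jon99Fi (1370), Jon25Bii (1270) and Jon25Bi (1210) followed, all in CPM per kb. EpsilonTry was thus the leading trypsin, ahead of alphaTry (563 CPM per kb) and betaTry (507 CPM per kb). At the low end were Jon74E (8.16), Jon66Cii (4.75) and gammaTry (0.715 CPM per kb, rank 10685). Together the 27 genes took 1.48% ± 0.489 of counts in Set21 larvae (SD, n = 4), against 1.49% ± 0.195 in yw larvae (n = 3). They took 1.01% ± 0.130 in combined H3K36R, 1.42% ± 0.157 in H3.3K36R alone and 1.87% ± 0.209 in H4K16R larvae, against 1.72% ± 0.164 in the histone control (n = 4 each). Trypsins made up 15.5% ± 0.927 of the summed CPM in Set21 larvae, against 18.8% ± 2.26 in yw larvae, and 18.7% ± 1.11 in combined H3K36R larvae, against 16.6% ± 0.683 in the histone control.

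**Figure D1:**
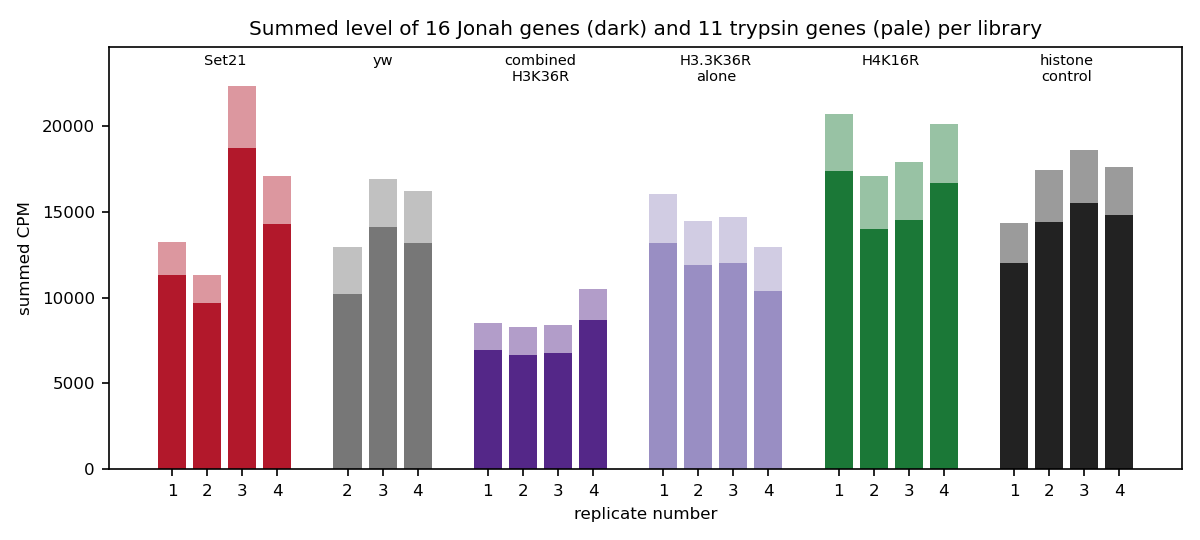
Summed CPM of the 16 Jonah genes (dark part of each bar) and the 11 trypsin genes (pale part) in each of the 23 libraries; the vertical axis is CPM and the horizontal axis the replicate number within each genotype. The 4 combined H3K36R libraries sum to 8280 to 10500 CPM, below every other library, and the Set21 libraries spread from 11300 to 22300 CPM.

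Combined H3K36R larvae had lower RNA levels of most of these proteases than the histone control. Of the 27 genes, 20 fell and none rose: 13 of the 16 Jonah genes and 7 of the 11 trypsin genes. Over all tested genes, 22.8% were called lower and 16.4% higher. DESeq2 also gave 20 lower and called alphaTry higher, and at an unadjusted p below 0.05 edgeR had 23 members lower and 1 higher, with 26.1% of all tested genes lower and 20.1% higher at that threshold. The median log2 fold change was −1.11 over the members, against −0.02 over all tested genes. In 22 of the 27, the libraries of both groups did not overlap, against 42.6% of all tested genes. Summed over the 27 genes, the level was 8920 ± 1050 CPM in combined H3K36R larvae and 17000 ± 1810 CPM in the histone control (SD, n = 4 each).

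The fall was steepest in thetaTry, from the middle of the trypsin cluster. It had 8.41, 5.63, 12.4 and 9.43 CPM in the combined H3K36R libraries, against 76.0, 118, 108 and 96.8 CPM in the histone control. Every combined H3K36R library was far below the lowest control library, and the fitted level was 11.1-fold lower (log2 fold change −3.47 ± 0.24, adjusted p = 1.83e-09). EpsilonTry, the most abundant trypsin, had 341, 272, 386 and 372 CPM in combined H3K36R larvae, against 1020, 1490, 1730 and 1380 CPM in the histone control. It was lower in all 4 libraries (log2 fold change −2.04 ± 0.18, adjusted p = 4.35e-08). ZetaTry fell to 34.5, 31.7, 55.7 and 50.8 CPM in combined H3K36R larvae, against 93.1, 105, 115 and 95.5 CPM in the histone control (log2 fold change −1.24 ± 0.14, adjusted p = 9.21e-07). LambdaTry (−0.96 ± 0.20) and kappaTry (−0.77 ± 0.12) fell less. GammaTry and deltaTry also passed, at log2 fold changes of −3.42 ± 0.71 and −2.06 ± 0.66, on levels of 0.0816 ± 0.0229 and 11 ± 3.8 CPM in combined H3K36R larvae, against 0.881 ± 0.591 and 45.7 ± 26.3 CPM in the histone control. DeltaTry no longer passed without combined H3K36R replicate 4 (adjusted p = 0.0591) or histone control replicate 2 (adjusted p = 0.0605).

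Among the Jonah genes the largest fall was that of Jon99Fi. Its libraries had 233, 203, 250 and 357 CPM in combined H3K36R larvae, against 1480, 1730, 1920 and 1910 CPM in the histone control. That is 6.76-fold lower, with no overlap (log2 fold change −2.76 ± 0.25, adjusted p = 4.98e-08). Its neighbour Jon99Fii had 218, 247, 259 and 329 CPM, against 880, 985, 958 and 961 CPM in the histone control, and was 3.6-fold lower (adjusted p = 2.19e-06). In the Jon65A cluster the genes moved by very different amounts. Jon65Ai had 46.2, 37.8, 41.8 and 69.4 CPM in combined H3K36R larvae, against 250, 291, 326 and 297 CPM in the histone control, a 5.96-fold difference (adjusted p = 1.87e-07). Jon65Aii had 25.7, 16.6, 21.3 and 35.8 CPM, against 97.9, 149, 156 and 154 CPM in the histone control, 5.60-fold lower (adjusted p = 3.27e-07). Jon65Aiv, the most abundant member, from the other end of that cluster, had 2340, 2110, 2250 and 2530 CPM in combined H3K36R larvae, against 2890, 3910, 4450 and 3680 CPM in the histone control. Jon65Aiv was only 1.62-fold lower, also without overlap (adjusted p = 0.000834), and Jon65Aiii was 1.83-fold lower (adjusted p = 0.0022). Jon65Aiii had 911, 840, 783 and 1060 CPM in combined H3K36R larvae, against 1430, 1780, 1750 and 1630 CPM in the histone control, with every combined H3K36R library below every control library. The ratio of Jon65Ai to Jon65Aiv, per kilobase and within a library, was 0.0199 ± 0.00421 in combined H3K36R larvae and 0.0748 ± 0.00578 in the histone control.

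The remaining Jonah genes that fell were Jon99Ciii (−1.67 ± 0.28), Jon66Cii (−1.31 ± 0.39), Jon74E (−1.19 ± 0.16), Jon66Ci (−1.12 ± 0.33), Jon44E (−1.11 ± 0.30), Jon25Bi (−0.83 ± 0.19) and Jon99Cii (−0.72 ± 0.22), all as log2 fold changes. Jon25Bi, the most abundant of them, had 503, 514, 515 and 749 CPM in combined H3K36R larvae, against 894, 1070, 1090 and 995 CPM in the histone control. Jon99Ciii had 378, 338, 325 and 483 CPM in combined H3K36R larvae, against 1090, 1080, 1040 and 1640 CPM in the histone control. Jon99Cii had 287, 333, 257 and 433 CPM in combined H3K36R larvae, against 516, 536, 491 and 613 CPM in the histone control. None of these 3 overlapped between the groups. Jon66Cii, weakly expressed, did not overlap either, with 0.705, 0.827, 0.919 and 1.41 CPM in combined H3K36R larvae, against 2.22, 2.91, 2.9 and 1.59 CPM in the histone control. Jon99Cii had an adjusted p of 0.0514 without combined H3K36R replicate 3. The 7 genes that did not pass had log2 fold changes from −0.51 to 0.47. Jon25Biii, an abundant gene, had 958, 994, 1110 and 1380 CPM in combined H3K36R larvae, against 1130, 1340, 1510 and 1290 CPM in the histone control, so the groups overlapped (log2 fold change −0.25, adjusted p = 0.267). Jon25Bii overlapped too, with 780, 839, 736 and 1020 CPM in combined H3K36R larvae, against 1000, 1050, 1270 and 1250 CPM in the histone control (−0.44, adjusted p = 0.07). Jon99Ci did not overlap (−0.51, adjusted p = 0.0887). With only these 2 groups fitted, both passed as lower, at adjusted p = 0.00865 for Jon25Bii and 0.00633 for Jon99Ci. EtaTry (−0.29, adjusted p = 0.0592), betaTry (−0.25, adjusted p = 0.584) and iotaTry (0.12, adjusted p = 0.706) did not pass either. Jon25Bii passed without combined H3K36R replicate 4 (adjusted p = 0.043), and etaTry without histone control replicate 4 (adjusted p = 0.0146).

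AlphaTry went the other way from its neighbours. It had 765, 864, 685 and 780 CPM in combined H3K36R larvae, against 594, 631, 445 and 566 CPM in the histone control. All 4 combined H3K36R libraries were above all 4 control libraries, at a log2 fold change of 0.47 ± 0.19 and an adjusted p of 0.0578. The adjusted p was 0.0266 with DESeq2 and 0.00654 when only these 2 groups were fitted. The alphaTry and epsilonTry genes are adjacent in the annotation, and the ratio of alphaTry to epsilonTry, per kilobase and within a library, was 2.24 ± 0.582 in combined H3K36R larvae and 0.403 ± 0.127 in the histone control, with library ranges of 1.71 to 3.07 and 0.249 to 0.560. AlphaTry was thus the higher of the pair in every combined H3K36R library, and epsilonTry in every control library. The same ratio was 0.414 ± 0.0559 in H3.3K36R alone, and it was 0.187 ± 0.0189 in Set21 larvae and 0.181 ± 0.0119 in yw larvae.

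**Figure D2:**
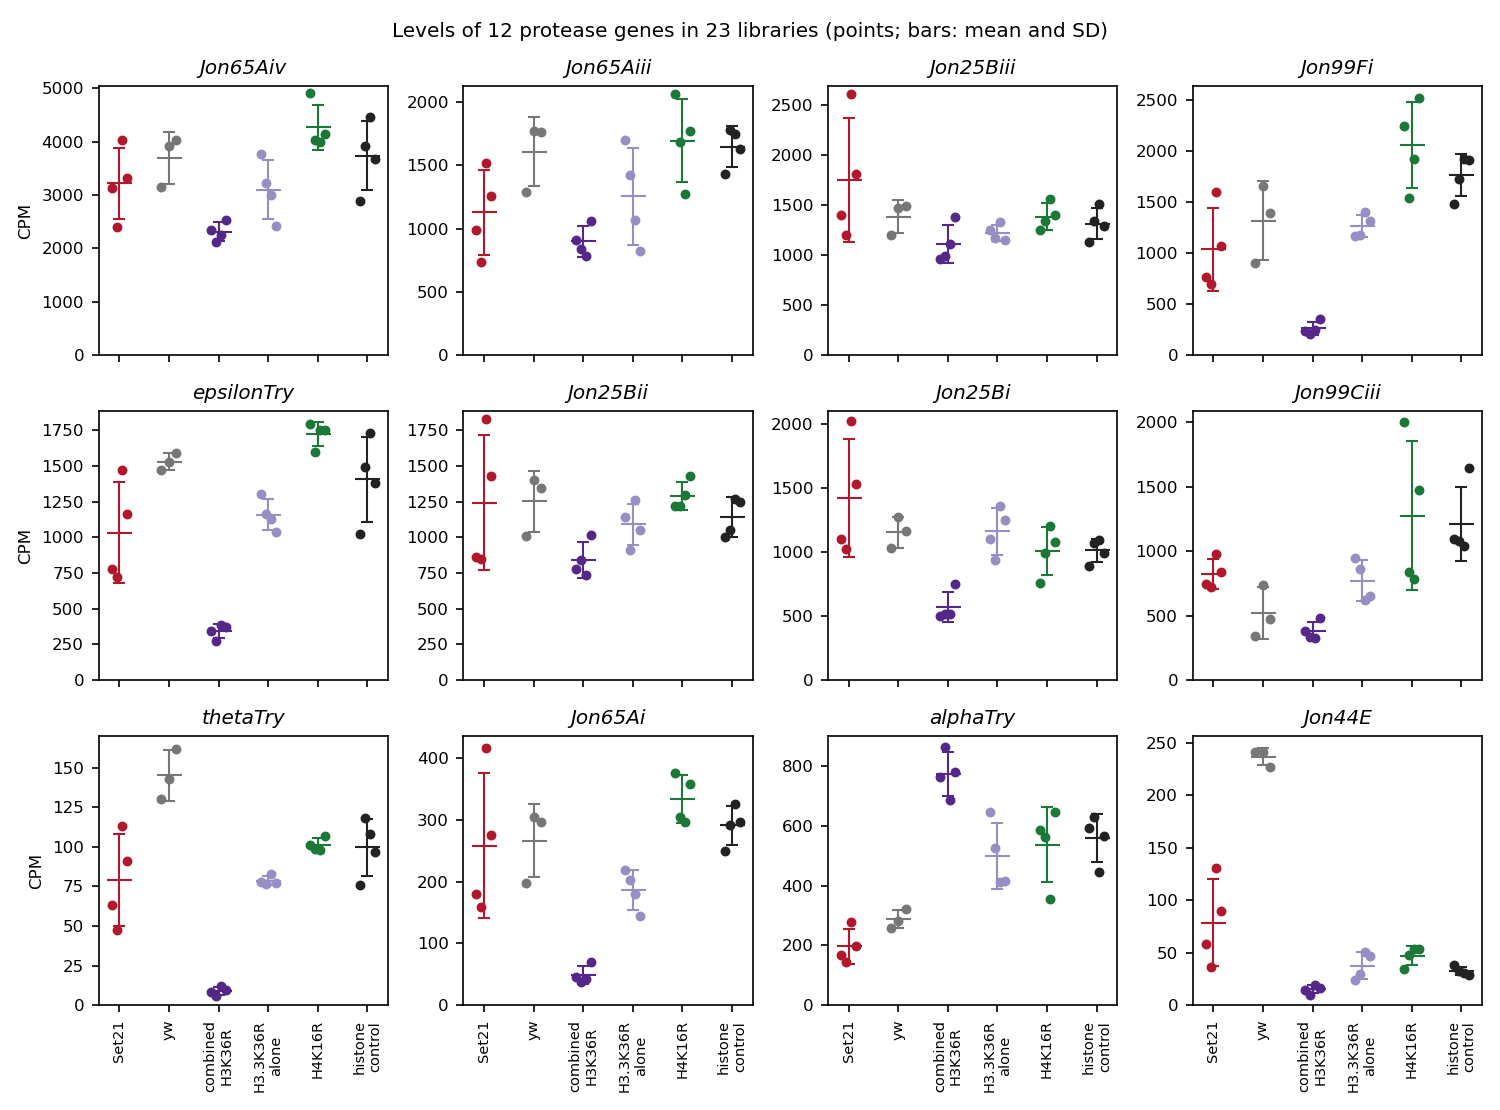
CPM of 12 members in each of the 23 libraries (points) with the group mean and SD (bars); genotypes run along the horizontal axis, and each panel has its own vertical axis from 0. ThetaTry, epsilonTry, Jon99Fi and Jon65Ai have all 4 combined H3K36R libraries far below the other groups, Jon25Biii overlaps in all groups that are next to each other in level, and alphaTry is highest in combined H3K36R larvae.

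Against larvae with H3.3K36R alone, which differ from combined H3K36R larvae in H3.2, 20 members were lower in combined H3K36R and 1 was higher, with 28.0% of all tested genes called lower and 19.7% higher. The median log2 fold change was −1.02 over the members, against −0.03 over all tested genes, and the groups did not overlap in 18 members and in 49.7% of all tested genes. ThetaTry had 78.0, 76.7, 82.6 and 77.2 CPM in H3.3K36R alone, all above the 4 combined H3K36R libraries given above (log2 fold change −3.13 ± 0.23, adjusted p = 5.75e-09). Jon99Fi had 1170, 1180, 1400 and 1310 CPM in H3.3K36R alone and was 4.84-fold lower in combined H3K36R larvae (adjusted p = 2.17e-07). GammaTry (−3.22 ± 0.71) and deltaTry (−2.15 ± 0.66) had large but imprecise log2 fold changes. AlphaTry was the gene that rose, with 765, 864, 685 and 780 CPM in combined H3K36R larvae, against 645, 526, 413 and 416 CPM in H3.3K36R alone. Its libraries did not overlap (log2 fold change 0.63 ± 0.19, adjusted p = 0.00989). EtaTry, which did not pass against the histone control, was lower here (−0.47 ± 0.12, adjusted p = 0.0028), and Jon65Aiii (−0.48, adjusted p = 0.0653) was not called. Some of these calls rested on single libraries. LambdaTry was lost without combined H3K36R replicate 1 (adjusted p = 0.0525) or H3.3K36R alone replicate 1 (0.0761), and deltaTry without H3.3K36R alone replicate 1 (0.0595). Jon65Aiv was lost without combined H3K36R replicates 2 or 3 or H3.3K36R alone replicates 1, 2 or 3 (adjusted p 0.0521 to 0.166), and Jon74E without combined H3K36R replicate 2 or H3.3K36R alone replicates 3 or 4 (0.0665 to 0.092). This comparison shares its combined H3K36R libraries with the one above, and the comparisons with the histone control share the control libraries.

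H3.3K36R alone differed from the histone control in 1 of these genes in the fit of all groups. Jon74E passed the test, so that 1 of 27 fell and none rose, while 1.02% of all tested genes were called lower and 0.947% higher. Jon74E, a member at a low level, had 6.4, 5.02, 7.76 and 7.23 CPM in H3.3K36R alone, against 9.61, 12.2, 12.2 and 9.07 CPM in the histone control. The groups did not overlap (log2 fold change −0.71 ± 0.16, adjusted p = 0.023), and the adjusted p was 0.0532 without histone control replicate 2. Without overlap but not called were Jon65Ai (−0.65, adjusted p = 0.157), Jon99Ciii (−0.66, adjusted p = 0.184), Jon99Fii (−0.58, adjusted p = 0.161) and Jon99Fi (−0.48, adjusted p = 0.247). With only these 2 groups fitted, Jon99Fii (adjusted p = 0.0012), Jon99Fi (0.0157) and Jon65Ai (0.0284) passed as lower, which made 4 members lower. Every library of H3.3K36R alone was below every control library in 5 of the 27 members and in 5.28% of all tested genes. At an unadjusted p below 0.05, 5 members were lower and none higher, with 7.21% of all tested genes lower and 13.1% higher at that threshold. The median log2 fold change of the members was −0.16, against 0.03 over all tested genes.

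In H4K16R larvae no member was called in either direction against the histone control by edgeR or by DESeq2, where 0.278% of all tested genes were called higher and 1.03% lower. At an unadjusted p below 0.05, edgeR had 2 members higher, kappaTry and Jon65Aii, and none lower, with 7.50% of all tested genes higher and 7.34% lower at that threshold. The members' log2 fold changes ran from −0.06 to 0.54, with 25 of 27 above 0 and a median of 0.18, against 0.05 over all tested genes. Jon65Aii had 206, 207, 180 and 214 CPM in H4K16R larvae, against 97.9, 149, 156 and 154 CPM in the histone control. Those libraries did not overlap, but the difference did not pass (log2 fold change 0.53 ± 0.24, adjusted p = 0.314). The groups did not overlap in 2 of the 27 members and in 8.38% of all tested genes. ThetaTry was at 101 ± 4.18 CPM in H4K16R larvae and 99.6 ± 18 CPM in the histone control (SD, n = 4 each). Against combined H3K36R, H4K16R larvae had 23 members higher and 1 lower, where 26.8% of all tested genes were called higher and 18.3% lower. The groups did not overlap in 22 members and in 44.5% of all tested genes. The gene that was lower in H4K16R was alphaTry, with 585, 562, 357 and 646 CPM in H4K16R larvae, against 765, 864, 685 and 780 CPM in combined H3K36R larvae (log2 fold change −0.53 ± 0.19, adjusted p = 0.03). It no longer passed without combined H3K36R replicate 1 (0.0511), combined H3K36R replicate 2 (0.0821) or H4K16R replicate 3 (0.0816), all adjusted p. Jon99Ci (0.66 ± 0.23, adjusted p = 0.0259) was lost without combined H3K36R replicates 1, 2 or 3 or H4K16R replicates 3 or 4 (adjusted p 0.0563 to 0.0858). Of the other members, thetaTry (log2 fold change 3.5 ± 0.24), Jon65Aii (3.02 ± 0.26) and Jon99Fi (2.98 ± 0.25) differed most among those with well measured levels. BetaTry passed only with the replicate number as a block (0.52, adjusted p = 0.0331, against 0.60 and 0.137 without it).

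**Figure D3:**
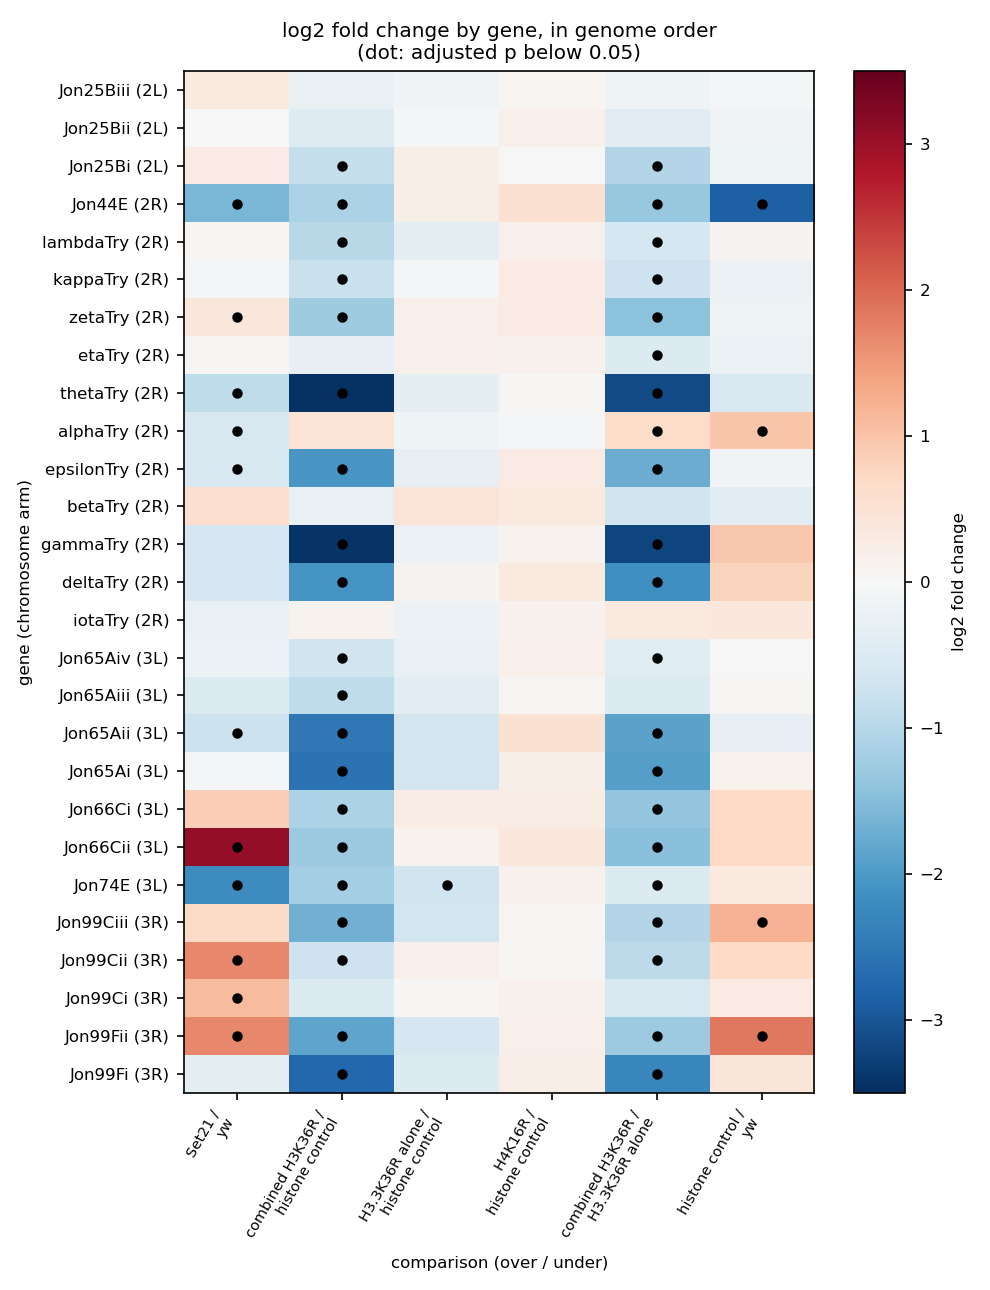
Log2 fold changes of the 27 members, in genome order down the page, in 6 comparisons along the horizontal axis; blue is lower and red higher in the genotype named first, and a dot marks an adjusted p below 0.05. The combined H3K36R columns are mostly blue with 20 dots lower in each, the Set21 column has dots in both colours, and the H3.3K36R alone and H4K16R columns hold 1 and 0 dots.

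Set21 larvae differed from yw larvae in both directions. Of the 27 genes, 5 rose and 6 fell, where 23.4% of all tested genes were called higher and 21.1% lower, so the members' shares were near those of the whole table. The groups did not overlap in 9 members and in 46.0% of all tested genes. The median log2 fold change was −0.04, against 0.02 over all tested genes. Summed CPM was 16000 ± 4840 in Set21 larvae (n = 4), with 13300, 11300, 22300 and 17100 CPM in replicates 1 to 4, against 15300 ± 2140 in yw larvae (SD, n = 3). Set21 replicates 3 and 4 were above every yw library in that sum. The spread between Set21 libraries was the widest of the 6 groups, with a median coefficient of variation over members of 34.2%, against 13.1% in yw and up to 17.9% in the histone genotypes. Set21 replicate 3, the library with the highest protease sum, had the lowest summed level of 12 neuronal genes, 993 CPM, beside 1990, 2230 and 2080 CPM in Set21 replicates 1, 2 and 4 and 3260 to 3640 CPM in yw larvae. Set21 replicate 1 had the highest Osiris sum, given above. The part of these differences between libraries in the proteases' values was not tested.

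Of the 5 genes that rose in Set21 larvae, 3 were Jonah genes of the clusters on 3R. Jon99Cii had 936, 900, 1310 and 1150 CPM in Set21 larvae, against 214, 482 and 307 CPM in yw larvae. Every Set21 library was above every yw library (log2 fold change 1.68 ± 0.25, adjusted p = 3.15e-05). Jon99Fii had 648, 517, 1310 and 868 CPM in Set21 larvae, against 170, 348 and 271 CPM in yw larvae, 3.18-fold higher without overlap (adjusted p = 3.69e-05). Jon99Ci had 190, 147, 392 and 239 CPM, against 124, 109 and 104 CPM in yw larvae, again without overlap (1.10 ± 0.26, adjusted p = 0.00203). Jon99Ciii (0.66, adjusted p = 0.077) and Jon99Fi (−0.35, adjusted p = 0.267) of the same clusters did not pass. Jon99Fi and Jon99Fii lie side by side, and the ratio of Jon99Fi to Jon99Fii, per kilobase and within a library, was 1.22 ± 0.0723 in Set21 larvae and 4.97 ± 0.262 in yw larvae. It was 0.966 ± 0.118 in combined H3K36R larvae and 1.82 ± 0.158 in the histone control. H3.3K36R alone had 1.95 ± 0.0646 and H4K16R larvae 1.85 ± 0.141, so the yw larvae stood apart from all other genotypes in this ratio. The largest rise was in Jon66Cii, a weakly expressed gene, with 9.19, 4.75, 21.2 and 14.7 CPM in Set21 larvae, against 0.739, 2.35 and 1.35 CPM in yw larvae (8.41-fold higher, adjusted p = 3.36e-05). ZetaTry was the trypsin that rose, with 160, 138, 193 and 126 CPM in Set21 larvae, against 111, 120 and 116 CPM in yw larvae. Its rise was small (0.41 ± 0.16, adjusted p = 0.0361) and it did not pass without any of 5 libraries, Set21 replicates 1 (0.0541) and 3 (0.131) and yw replicates 2 (0.0798), 3 (0.0645) and 4 (0.0925), all adjusted p.

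Lower in Set21 larvae were 3 Jonah genes and 3 trypsins. Jon74E had 1.75, 1.31, 2.42 and 1.95 CPM in Set21 larvae, against 7.95, 8.85 and 8.78 CPM in yw larvae, 4.59-fold lower and far outside the spread of either group (adjusted p = 1.52e-08). Jon44E had 58.2, 36.4, 131 and 89.4 CPM, against 241, 241 and 227 CPM in yw larvae, 3.0-fold lower without overlap (adjusted p = 0.000751). ThetaTry, with 63.2, 47.7, 113 and 91.0 CPM in Set21 larvae, against 130, 143 and 162 CPM in yw larvae, was lower in every library (log2 fold change −0.88 ± 0.23, adjusted p = 0.00443). The other 3 falls were less secure. EpsilonTry had 778, 719, 1470 and 1160 CPM in Set21 larvae, against 1470, 1530 and 1590 CPM in yw larvae (log2 fold change −0.57 ± 0.19, adjusted p = 0.0192), and Set21 replicate 3 reached the lowest yw library to within rounding. It did not pass without Set21 replicate 1 (adjusted p = 0.0633), Set21 replicate 2 (0.0672) or yw replicate 4 (0.0547). Jon65Aii (−0.75 ± 0.26, adjusted p = 0.0248) and alphaTry (−0.55 ± 0.21, adjusted p = 0.035) overlapped between the groups. Jon65Aii was lost without Set21 replicate 1 (0.0731) or 2 (0.0768) or yw replicate 2 (0.0744) or 4 (0.0543). AlphaTry was lost without any library except Set21 replicate 3, with adjusted p up to 0.125. With only Set21 and yw fitted, epsilonTry (0.0745), Jon65Aii (0.0688), alphaTry (0.0555) and the rise of zetaTry (0.0585) did not pass, all as adjusted p. The count of members that fell was 3 without Set21 replicate 1, Set21 replicate 2 or yw replicate 4 and 10 without Set21 replicate 3, against 6 with all libraries. Those that rose numbered 4 to 7 when any 1 library was left out.

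The 2 mutant effects, each measured against its own control with no library in common, were compared in the same model. The Set21 effect was the higher of the pair for 16 members and the lower for 2, where 27.9% of all tested genes were called higher and 23.6% lower. The median difference was 1.45 on the log2 scale, against 0.04 over all tested genes. Jon99Fii, which rose in Set21 larvae and fell in combined H3K36R larvae, had a difference of 3.52 ± 0.34 (adjusted p = 1.66e-07). Jon66Cii (4.39 ± 0.59, adjusted p = 5.32e-06), Jon99Cii (2.40 ± 0.33, adjusted p = 6.28e-06) and zetaTry (1.66 ± 0.21, adjusted p = 2.74e-06) likewise had called changes of opposite sign. The 2 controls were unlike for Jon99Fii, at 263 CPM in yw larvae and 946 CPM in the histone control. Its mean was 835 CPM in Set21 and 263 CPM in combined H3K36R larvae. Jon99Cii had 334 CPM in yw larvae and 539 CPM in the histone control, called by DESeq2 (adjusted p = 0.0231) and not by edgeR. These signs are thus relative to unlike controls. Jon44E, thetaTry, epsilonTry, Jon65Aii and Jon74E fell in both. Among these, the fall was larger in combined H3K36R larvae for thetaTry (difference 2.59 ± 0.33, adjusted p = 2.64e-06), Jon65Aii (1.74 ± 0.36, adjusted p = 0.000498) and epsilonTry (1.47 ± 0.26, adjusted p = 9.34e-05). Jon74E fell more in Set21 larvae (−1.0 ± 0.24, adjusted p = 0.00142), and for Jon44E the effects were not told apart (−0.48 ± 0.44, adjusted p = 0.385). AlphaTry, lower in Set21 larvae and not called in combined H3K36R larvae, differed by −1.02 ± 0.28 (adjusted p = 0.0046). A further 11 members fell in combined H3K36R larvae and were not called in Set21 larvae. Of these, Jon65Ai (2.53 ± 0.37, adjusted p = 1.16e-05) and Jon99Fi (2.41 ± 0.35, adjusted p = 1.12e-05) had differences that passed, and Jon65Aiv (0.49 ± 0.22, adjusted p = 0.0682) and Jon65Aiii (0.37 ± 0.31, adjusted p = 0.342) did not. GammaTry's difference (2.83 ± 0.99, adjusted p = 0.0206) was lost without yw replicate 4 (adjusted p = 0.0577). Jon25Biii, Jon25Bii, etaTry, betaTry and iotaTry were called in neither.

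**Figure D4:**
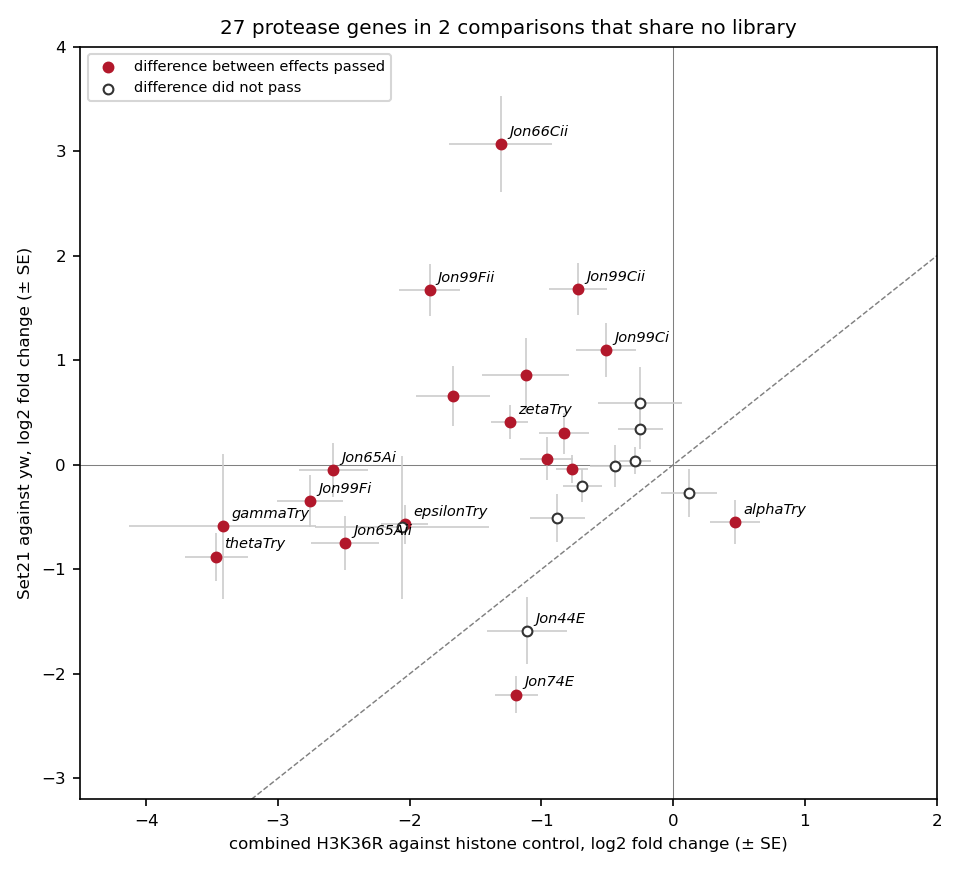
Log2 fold change of each of the 27 members in Set21 against yw larvae (vertical axis) and in combined H3K36R larvae against the histone control (horizontal axis), with SEs as lines; filled points have a difference between the effects with adjusted p below 0.05, and the dashed line marks equal effects. Most points lie above the dashed line, Jon66Cii and Jon99Fii far above it, and Jon74E and alphaTry are the filled points below it.

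**Figure D5:**
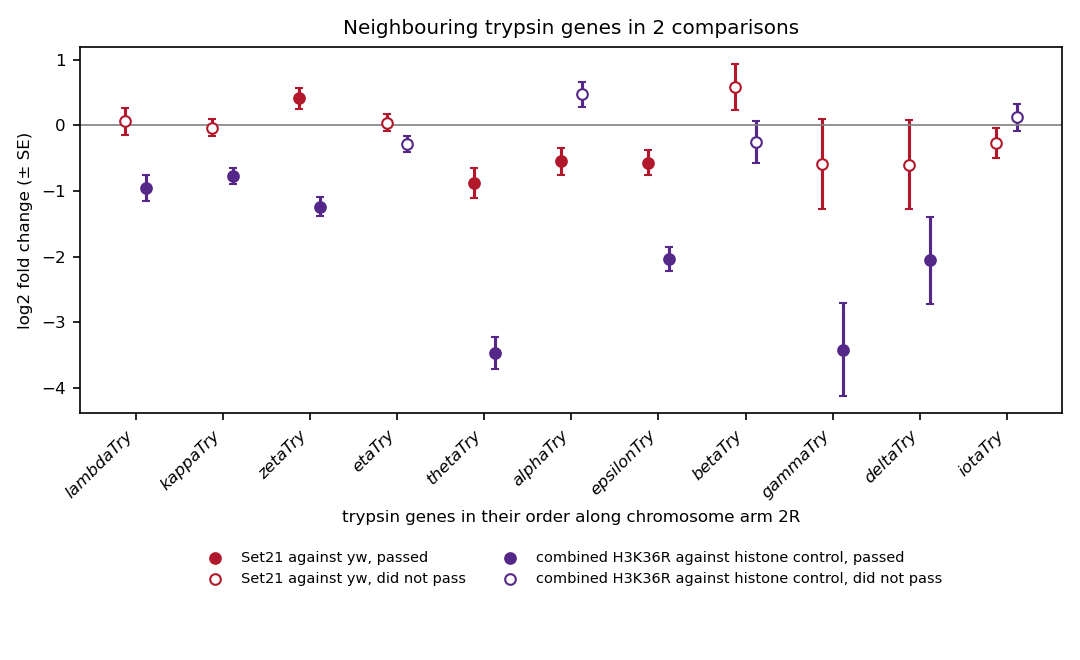
Log2 fold changes (± SE) of the 11 trypsin genes in their order along the chromosome, for Set21 against yw larvae (red) and combined H3K36R larvae against the histone control (purple); filled points passed the test. ThetaTry at −3.47 and epsilonTry at −2.04 flank alphaTry at 0.47 in combined H3K36R larvae, while all Set21 values lie between −0.88 and 0.59.

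The histone control and yw differed in 4 members. AlphaTry, Jon99Ciii and Jon99Fii were higher and Jon44E lower in the histone control, where 8.08% of all tested genes were called. The groups did not overlap in 11 members and in 22.4% of all tested genes. Jon44E had 38.4, 32.3, 30.8 and 28.6 CPM in the histone control, against 241, 241 and 227 CPM in yw larvae, 7.27-fold lower (adjusted p = 7.71e-06). No library of the 4 histone genotypes had more than 53.3 CPM of Jon44E, and 3 of the 4 Set21 libraries had more than that. Jon99Fii had 880, 985, 958 and 961 CPM in the histone control, against 170, 348 and 271 CPM in yw larvae, 3.6-fold higher (adjusted p = 3.55e-05). AlphaTry (0.96 ± 0.21, adjusted p = 0.00561) and Jon99Ciii (1.22 ± 0.30, adjusted p = 0.013) were higher without overlap, and Jon99Ciii was lost without yw replicate 2 (adjusted p = 0.071) or 4 (0.0708). This comparison shares its libraries with those above. Over the 6 genotypes, the lowest mean was that of combined H3K36R larvae for 23 members, of Set21 larvae for alphaTry, iotaTry and Jon74E, and of yw larvae for Jon99Fii. The highest mean was that of H4K16R larvae for 16 members, Set21 larvae for 8, yw larvae for 2 and combined H3K36R larvae for alphaTry. Jon44E spanned the widest range but for thetaTry, with its highest group mean 15.6-fold its lowest, and thetaTry spanned 16.1-fold.

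Genes from a list of midgut identity genes were set beside the proteases. Whether they mark only the cells that make these enzymes was not tested, so in whole larvae their sum does not measure those cells. Of 13 midgut identity genes, 4 fell and 1 rose in combined H3K36R larvae against the histone control, with a median log2 fold change of −0.19. Over all tested genes, 22.8% were called lower and 16.4% higher. The GATA factor GATAe, a regulator of endodermal genes, had 76.3 to 89.2 CPM in combined H3K36R larvae, against 78.8 to 97.1 CPM in the histone control. The enterocyte gene mex1 had a log2 fold change of −0.59 ± 0.09 (adjusted p = 3.42e-05), with 66.3 to 77.6 CPM in combined H3K36R larvae, against 98.2 to 113 CPM in the histone control. Npc1b, needed for sterol uptake in the midgut, had one of −1.10 ± 0.16 (adjusted p = 1.52e-05). The gene of this list that rose and the others that fell are not described here. The summed level of the 13 genes was 976 to 1040 CPM in combined H3K36R larvae, against 1100 to 1220 CPM in the histone control, and none of the 13 was at 0. In Set21 larvae 8 of the 13 fell and none rose, with a median of −0.35, where 21.1% of all tested genes were called lower and 23.4% higher. The sum was 1030 to 1190 CPM in Set21 larvae, against 1200 to 1340 CPM in yw larvae. Neither H3.3K36R alone nor H4K16R larvae had a called gene on that list. Of all tested genes, 1.02% and 1.03% were called lower there, and 0.947% and 0.278% higher. The part of these shifts in the proteases' changes was not tested.

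Other products of the larval gut went both ways. Of 40 tested genes for other digestive enzymes, 13 fell and 9 rose in combined H3K36R larvae, with a median log2 fold change of −0.10. Over all tested genes, 22.8% were called lower and 16.4% higher, the background for each combined H3K36R count here. The midgut lysozymes divided, with LysB (−2.41 ± 0.40, adjusted p = 7.51e-05) and LysD (−1.93 ± 0.35, adjusted p = 0.000185) lower and LysS (0.60 ± 0.23, adjusted p = 0.0446) higher. The list of serine proteases outside the Jonah and trypsin families was a chosen set, not limited to gut enzymes. Of its 22 tested genes, 2 fell and 2 rose among the combined H3K36R calls. Ser6 (−1.64 ± 0.20, adjusted p = 1.49e-06) and sphe (−0.69 ± 0.15, adjusted p = 0.000808) fell, and the 2 that rose are not described here. Of 10 genes of the peritrophic matrix, the lining that separates food from the gut wall, 4 fell and 1 rose. Peritrophin-15a was at −1.26 ± 0.17 (adjusted p = 5.32e-06), and the gene that rose is not described here. In Set21 larvae 20 of the 40 other enzymes rose and 5 fell, with a median of 0.56, where 23.4% of all tested genes were called higher and 21.1% lower. Among those that rose were the mannosidase LManVI (1.11 ± 0.32, adjusted p = 0.00816), LysS (1.26 ± 0.26, adjusted p = 0.000687) and LysD (1.23 ± 0.38, adjusted p = 0.0126). The 5 that fell are not described here. The Set21 effect was the higher of the 2 mutant effects for 17 of the 40 and the lower for 8. Of all tested genes, 27.9% were called higher and 23.6% lower for that difference.

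Genes of protease regulation and nutrient signalling differed between the 2 mutants. Of 19 tested genes, 8 rose and 3 fell in combined H3K36R larvae, and 12 fell and none rose in Set21 larvae. Over all tested genes, 16.4% were called higher and 22.8% lower in combined H3K36R larvae. In Set21 larvae these shares were 23.4% and 21.1%. The Set21 effect was the lower of the 2 for 11 of the 19 and the higher for none, where 23.6% of all tested genes were called lower and 27.9% higher. Thor, which encodes the translation repressor 4E-BP and is switched on by Foxo in starvation, had a log2 fold change of 1.31 ± 0.29 (adjusted p = 0.00106) in combined H3K36R larvae against the histone control. It had one of −1.18 ± 0.31 (adjusted p = 0.00417) in Set21 against yw larvae. InR, the insulin receptor and another Foxo target, was at 0.86 ± 0.26 (adjusted p = 0.0104) in combined H3K36R and −1.38 ± 0.27 (adjusted p = 0.000549) in Set21 larvae. Thor and InR are only 2 of the 8 genes that rose in combined H3K36R larvae, and the 3 that fell are not described here. Foxo activity and feeding state were not tested. Of 11 fat body genes, 4 fell and 1 rose in combined H3K36R larvae, with sums of 3380 to 4790 CPM in combined H3K36R larvae, against 8970 to 11700 CPM in the histone control, and 4 fell in Set21 larvae. Muscle genes fell in 5 of 10 cases in combined H3K36R larvae, where 22.8% of all tested genes were called lower. There 2 of 12 neuronal genes rose, near the 16.4% of all tested genes called higher. In Set21 larvae 10 of the 12 neuronal genes fell and none rose, with a median log2 fold change of −0.91. The part of these shifts in the proteases' changes was not tested either.

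Many members varied together between replicate libraries, whether or not they were neighbours. After each group mean was removed from log2(CPM + 0.1), the median Pearson correlation over the 351 pairs of members was 0.53 across 23 libraries, 0.54 for the 69 pairs in the same cluster and 0.53 for the 282 others; pairs share libraries, so these are descriptions. The pairs ran from −0.70 to 0.94. Pairs of other genes were not examined, so this likeness is not shown to be particular to the members. Jon99Fi and Jon99Fii (0.94), gammaTry and deltaTry (0.93) and thetaTry and epsilonTry (0.89) were among the closest. BetaTry ran against the near-identical gammaTry and deltaTry, at −0.61 and −0.70. DeltaTry had 92.1 and 70.8 CPM in replicates 1 and 2 of H3.3K36R alone and 13 and 19.1 CPM in replicates 3 and 4, and 64.6, 71.9, 21.1 and 25.3 CPM in replicates 1 to 4 of the histone control. BetaTry had 431, 394, 753 and 704 CPM in the same H3.3K36R alone libraries, so that the libraries low in deltaTry were high in betaTry. CG30031, an adjacent copy, had 1.30 ± 0.365 CPM in combined H3K36R larvae and 6.96 ± 3.74 CPM in the histone control (SD, n = 4 each). It was lower like gammaTry and deltaTry (log2 fold change −2.42 ± 0.54, adjusted p = 0.00121). CG30025, the other such copy, had very low levels, 0.117 ± 0.053 CPM in combined H3K36R larvae and 0.206 ± 0.104 CPM in the histone control. It was not called (−0.81 ± 0.58, adjusted p = 0.296).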

How the data were processed

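The deposited values were whole-number read counts per gene for 17606 FlyBase identifiers in 23 total-RNA libraries of whole L1 larvae, a table the authors made before depositing it. Per the labels' protocols, RNA was taken up in Trizol, passed over a Zymo column with DNase I and turned into libraries with a Nugen Ovation Universal kit for Drosophila (paired reads, 100 bp). The tools were STAR 2.7.2a and Subread 2.0.3, per the submitters' processing notes. How multimapping reads were counted, and with which build, annotation and strand setting, was not given in the sources used here. Replicate 1 of yw was dropped by the submitters for a fault in making the library.

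Genes were kept with filterByExpr at a minimum count of 10, counts were scaled by TMM (factors 0.898 to 1.14), and 1 mean per genotype was fitted to all 23 libraries with edgeR 4.0.16 in R 4.3.3 (robust quasi-likelihood, 17 residual degrees of freedom, common biological coefficient of variation 0.311). P-values are two-sided, adjusted by Benjamini-Hochberg over 14365 genes in each of 8 comparisons. The fit was also run on simulated counts drawn separately for each gene, which does not test the shifts between replicate libraries described above. Names, positions and exon lengths came from the BDGP6.54 annotation, which holds 17527 of the 17606 identifiers (99.6%). Alternatives were RLE size factors, DESeq2 1.42.0, no filter, a minimum count of 50, only the groups compared, the replicate number as a block, and each library left out.

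The labels do not say that replicates come from separate crosses, so p-values measure the spread between samples, which may be technical; the lowest chi-square over its degrees of freedom between the counts of replicates was 22.9, beyond counting noise. Same-numbered libraries had every correlation over 0.1 in H4K16R against the histone control (0.302 to 0.742) and H4K16R against combined H3K36R (0.261 to 0.55). In the first, differently numbered libraries reached more for replicates 2 (0.363, against 0.321) and 4 (0.453, against 0.302). In the second they did so for replicate 4 (0.367, against 0.261). For the remaining replicates the same-numbered value was the higher. The members and the 12 gene lists were chosen with earlier results of these data known. Library values are given in at least 1 comparison for the 8 most abundant members, up to 4 called rises and 4 called falls per comparison, and members with called changes of opposite sign; gammaTry, at very low counts, is given by group means. Other genes are named only from the lists, at most the 3 most abundant called genes of a list in a comparison. GATAe, CG30031 and CG30025 were named outside that rule, after their values were seen.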

Additional observations from a re-analysis of the deposited data

Results flagged for a closer look

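In 4 of the 135 sets of 4 libraries examined, 1 member in 1 genotype, a single library lay far from the other 3 by Dixon's criterion, the gap to the nearest library over the whole range. Chance alone marks about 1 in 20 such sets. Jon25Bi had 749 CPM in combined H3K36R replicate 4, against 503 to 515 CPM in the other 3 libraries. DeltaTry, a gene with near-identical copies, had 138 CPM in H4K16R replicate 1, against 22.5 to 41.9 CPM. Jon65Aii had 97.9 CPM in histone control replicate 1, against 149 to 156 CPM. Jon99Ciii had 1640 CPM in histone control replicate 4, against 1040 to 1090 CPM. Jon25Bi, Jon65Aii and Jon99Ciii kept their calls in combined H3K36R larvae against the histone control when that library was left out.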

How the results depend on the processing

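No member reversed direction in any alternative where it was called. Over all members, comparisons and alternatives, 3060 values kept their side of the threshold, 50 gained a call and 49 lost it. With only the groups compared in the fit, members called lower numbered 3 in Set21 against yw larvae (6 in the fit of all groups), 4 in H3.3K36R alone against the histone control (1) and 2 in the histone control against yw (1); the cause was not tested. AlphaTry made the count of members called higher in combined H3K36R larvae 1 with RLE size factors, DESeq2, the stricter minimum count or only the groups compared, against 0 otherwise. Leaving out 1 library at a time gave 3 to 10 members lower and 4 to 7 higher in Set21 larvae, 19 to 21 lower in combined H3K36R larvae, 0 to 1 lower in H3.3K36R alone, 18 to 21 lower in combined H3K36R against H3.3K36R alone, 2 to 4 higher in the histone control against yw, 22 to 23 higher and 0 to 1 lower in H4K16R against combined H3K36R, and 15 to 18 higher and 2 to 3 lower for the difference of effects. In the other comparisons some same-numbered correlations were low (0.00735 to 0.164 in Set21 against yw, 0.0324 to 0.622 in combined H3K36R against the histone control). Replicate 3 had 0.622 in combined H3K36R and 0.699 in H3.3K36R alone, each against the histone control. Differently numbered libraries reached at most −0.204 and −0.061 there. For replicate 2 they reached 0.371 and 0.255, above the same-numbered 0.113 and 0.121. For replicate 4 they reached 0.163 and 0.575, above the same-numbered 0.0324 and −0.0771. Replicate 1 went the way of replicate 3 in both comparisons. Whether same-numbered samples share more than a number is thus not settled, and the main fit had no block. With the replicate number as a block, no member lost a call and 9 gained one, which made 7 members higher in Set21 larvae and 22 lower in combined H3K36R larvae against either comparator; against the histone control the 2 added were Jon25Bii (adjusted p = 0.0267) and Jon99Ci (0.0307). Depth limits gammaTry most, at 0.0816 CPM in combined H3K36R larvae.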
